A study of Mus musculus with 6 samples.

Results

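The enzymes that carry glucose to pyruvate, lactate and acetyl-CoA, with those of the pentose phosphate pathway and the transporters that bring in glucose and move lactate, form a set of 40 genes chosen by name and function. Of these, 35 had a probe set assigned to 1 gene and passed the filter on low signal, among 11645 genes tested. Pfkfb1, Gpi1, Eno1, G6pdx and Gapdh had none assigned to a single gene and were not analysed here, apart from the array's own Gapdh control probe sets. RNA came from flow-sorted megakaryocyte progenitors of C57BL/6 mice, and all samples, in both groups, carry the genotype GATA1s, that is, GATA1 (a transcription factor of megakaryocytes and red cells) without its amino-terminal part. Bone marrow of adults aged 12 to 18 weeks (3 arrays) was compared with fetal liver at E13.5 (3 arrays). Both were sorted as lin-, Sca-1-, c-kit+, CD150+, CD41+. No cells with the full-length protein were analysed here, and nothing below can therefore be put down to the genotype. The labels call the samples biological replicates without saying how many animals stand behind each, and p-values cover only the spread from sample to sample.

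Glycolysis splits 1 glucose into pyruvate in the cytosol. Hexokinases trap glucose as its phosphate, phosphofructokinase commits it to breakdown, and the enzymes from aldolase to pyruvate kinase harvest ATP and NADH. Pyruvate is then either reduced to lactate by lactate dehydrogenase and exported, or oxidised in mitochondria through the pyruvate dehydrogenase complex, which the PDK kinases switch off. The pentose phosphate pathway branches off at glucose phosphate and yields NADPH and ribose. Many genes of the glycolytic route are known targets of the hypoxia-inducible factor HIF, and several steps are served by paralogues that differ between tissues.

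Values are MAS5 signals, a linear measure of brightness in arbitrary units per probe set, scaled by the authors to the same trimmed mean of 500 on each array. The median signal was 65.9 to 74.6 on bone marrow arrays and 52.0 to 59.1 on fetal liver arrays. Log2 fold changes are bone marrow minus fetal liver, and a gene is called when limma's adjusted p is under 0.05 over all genes tested. Of 16 markers of megakaryocytes, the labelled lineage, 14 had a probe set. None of those averaged below the level of unspiked bacterial control probe sets in either tissue. The same held for 8 endothelial markers in both tissues, and for granulocyte and monocyte markers in bone marrow. Being above that level therefore does not tell cell types apart. The summed signal of the megakaryocyte markers was 35576.5 to 40778 in bone marrow and 33780.4 to 48947.5 in fetal liver. The brightest were Pf4, Itga2b and Itgb3, and none of these was called. Of the 14, Selp was higher in bone marrow, with a log2 fold change of 3.25, and Tubb1 (-3.41), Thbs1 (-2.31), Gp9 (-1.23) and Treml1 (-0.75) were lower, so these markers moved in both directions alongside the genes below, and their part in the results was not tested. In these bulk samples, fewer cells of a type and less RNA per cell cannot be told apart.

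Bone marrow progenitors had lower signals for the lactate exporter Slc16a3, the glucose transporter Slc2a1, the phosphofructokinase Pfkl and most of the enzymes from aldolase to pyruvate kinase. They had higher signals for Hk3, Pfkfb4 and Ldhb, forms of hexokinase, of the fructose bisphosphate regulator and of lactate dehydrogenase. Of the 35 genes, 10 were lower (28.6%), 5 were higher (14.3%) and 20 were not called. Over all genes tested, 17.8% were lower and 18.3% were higher, and 36.1% were called in either direction against 42.9% of the set. The arrays of the tissues did not overlap for 19 of the 35 genes (54.3%), against 50.5% of all genes, so the set as a whole was near the background. The count of 5 higher genes was 2 without bone marrow replicate 2 and 3 without fetal liver replicate 3, and with median centring of the arrays 2 genes were higher and 20 lower. The set's median log2 fold change was -0.10, against -0.04 for all genes tested. Individual values spread from -2.21 for Slc16a3 to 3.0 for Hk3. The plots of signal by array and of fold change by step show this spread.

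**Figure D1:**
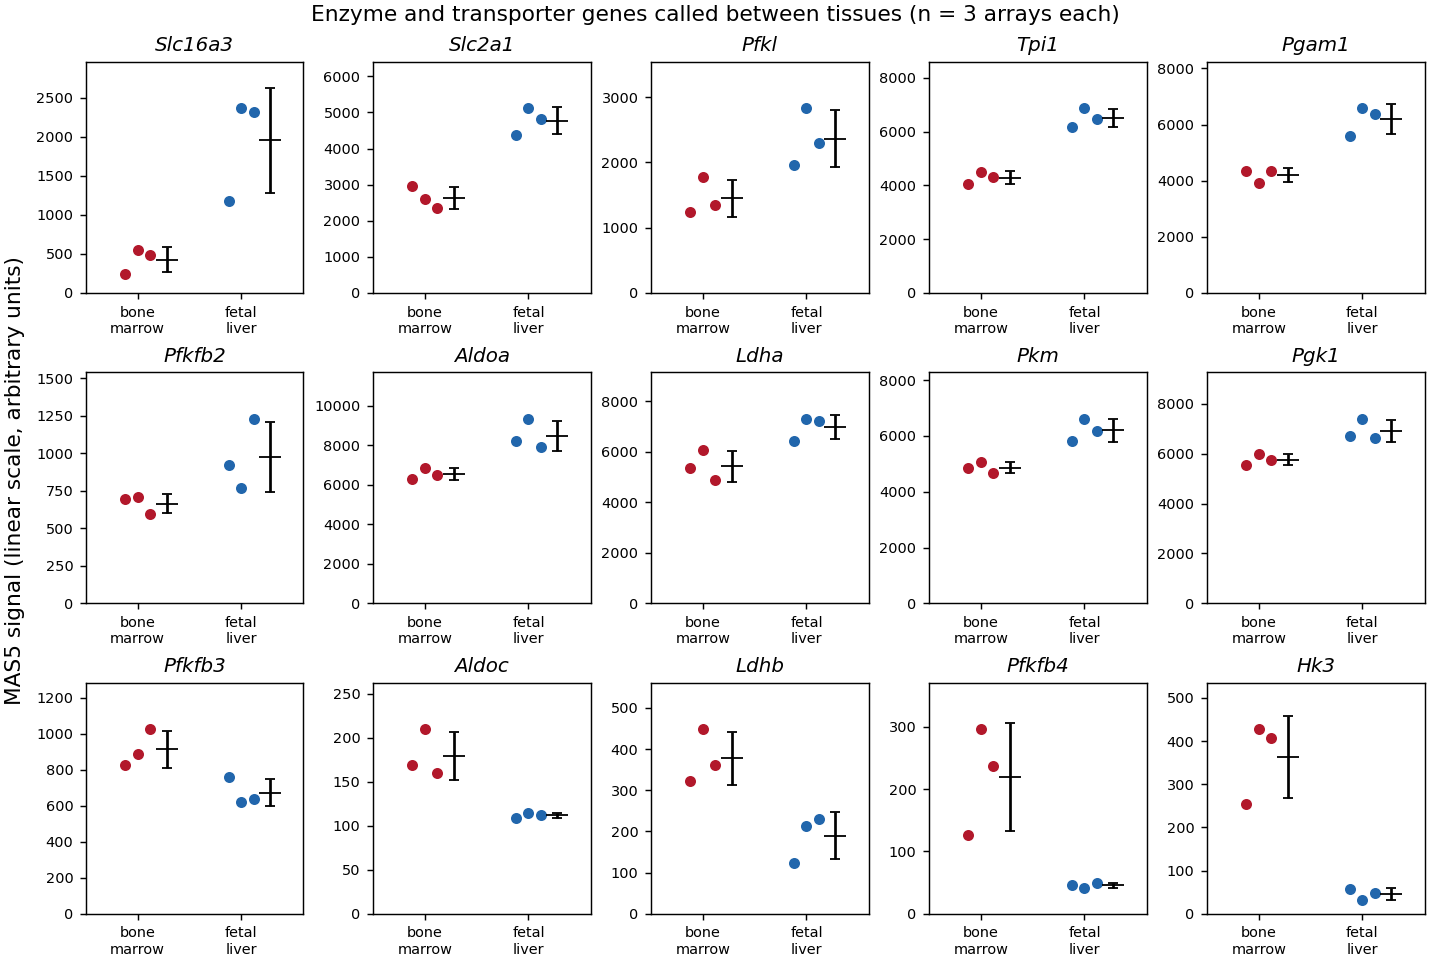
MAS5 signal (linear axis from 0, arbitrary units) on each array for the 15 called genes, with bone marrow in red on the left and fetal liver in blue on the right of each panel. Points are arrays, and black bars are the mean and SD (n = 3 each). The tissues do not overlap in any panel, and the first 10 panels are the genes lower in bone marrow.

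**Figure D2:**
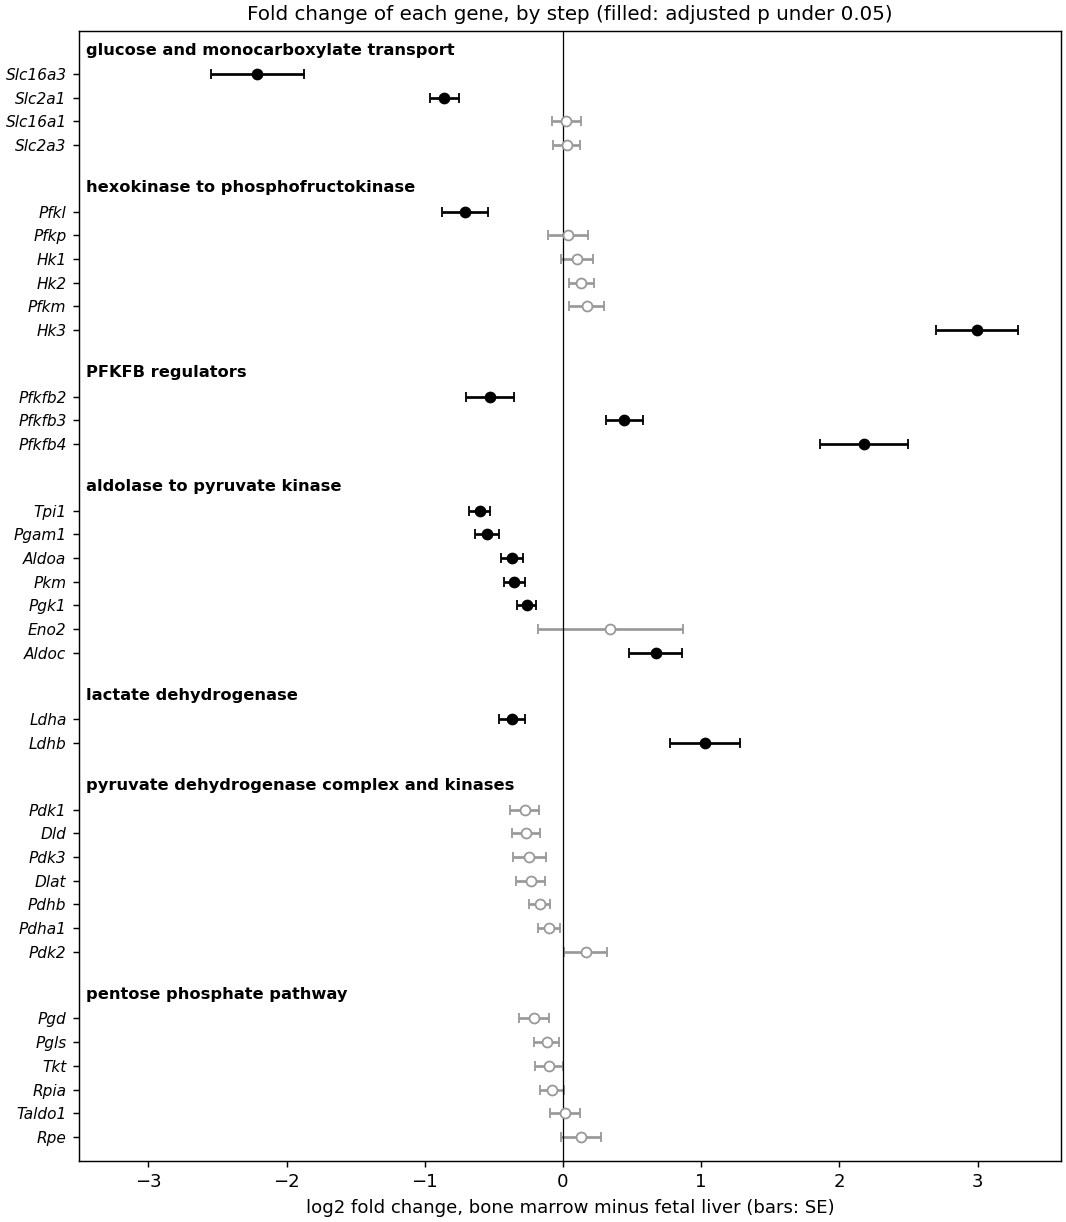
Log2 fold change, bone marrow minus fetal liver, of all 35 genes grouped by step, with SE bars from the limma fit. Filled points have an adjusted p under 0.05. Called genes sit among the transporters, regulators and glycolytic steps, while the 7 pyruvate dehydrogenase genes and the 6 pentose phosphate genes are all open points. Over all genes tested, 36.1% were called.

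The scaling matters for small changes. MAS5 sets the trimmed mean of each array equal, and centring each array on its median instead would place the median of all genes at a log2 fold change of -0.38. The share of calls that were higher in bone marrow was 50.7% as scaled by the authors, 20.04% after median centring, 31.6% after centring on the filtered probe sets and 45.0% after quantile normalization. A shift of that kind lowers every gene alike and leaves values relative to the median of all genes as they were. Relative to that median, Slc16a3 stood at -2.17, Slc2a1 at -0.82 and Pfkl at -0.67, whereas Pkm stood at -0.31 and Pgk1 at -0.22. With quantile normalization the same quantity was -2.21 for Slc16a3, -0.71 for Slc2a1, -0.61 for Pfkl, -0.19 for Pkm and -0.10 for Pgk1.

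The promoters of the 3 genes with the largest called decrease and the 3 with the largest called increase are shown because the set is known for HIF targets and these genes moved in opposite directions. Each sequence is the 250 bases before the annotated start, 5′ to 3′ on the gene's strand, from RefSeq (GRCm38.p6). Capitals mark the core ACGTG or GCGTG, letters shared with HIF's recognition element, read on either strand, so a match on the other strand appears as CACGT or CACGC.
Slc16a3, chr11:120948817-120949066, plus strand: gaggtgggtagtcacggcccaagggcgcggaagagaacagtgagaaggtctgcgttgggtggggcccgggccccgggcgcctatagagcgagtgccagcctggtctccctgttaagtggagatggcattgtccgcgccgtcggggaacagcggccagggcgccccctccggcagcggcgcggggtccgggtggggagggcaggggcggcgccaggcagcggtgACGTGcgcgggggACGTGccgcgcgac
Slc2a1, chr4:119108495-119108744, plus strand: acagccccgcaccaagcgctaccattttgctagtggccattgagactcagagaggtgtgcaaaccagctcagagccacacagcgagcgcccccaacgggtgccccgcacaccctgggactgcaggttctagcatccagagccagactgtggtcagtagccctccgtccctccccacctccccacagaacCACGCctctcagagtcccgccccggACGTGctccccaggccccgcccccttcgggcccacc
Pfkl, chr10:78009808-78010057, minus strand: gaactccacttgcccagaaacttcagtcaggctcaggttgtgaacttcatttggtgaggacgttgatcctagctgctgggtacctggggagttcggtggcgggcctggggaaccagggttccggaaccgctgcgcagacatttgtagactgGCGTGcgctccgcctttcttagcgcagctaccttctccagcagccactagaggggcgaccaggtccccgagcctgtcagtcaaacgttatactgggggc
Hk3, chr13:55021386-55021635, minus strand: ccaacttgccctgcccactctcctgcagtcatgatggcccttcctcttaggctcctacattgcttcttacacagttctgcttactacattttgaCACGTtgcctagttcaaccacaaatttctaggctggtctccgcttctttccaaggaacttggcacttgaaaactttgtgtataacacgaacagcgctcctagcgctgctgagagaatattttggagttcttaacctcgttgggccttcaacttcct
Pfkfb4, chr9:108991652-108991901, plus strand: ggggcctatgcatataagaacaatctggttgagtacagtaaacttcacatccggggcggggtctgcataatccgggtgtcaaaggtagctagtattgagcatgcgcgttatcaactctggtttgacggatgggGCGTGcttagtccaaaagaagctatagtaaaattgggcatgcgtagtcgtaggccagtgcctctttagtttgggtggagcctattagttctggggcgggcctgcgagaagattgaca
Ldhb, chr6:142507958-142508207, minus strand: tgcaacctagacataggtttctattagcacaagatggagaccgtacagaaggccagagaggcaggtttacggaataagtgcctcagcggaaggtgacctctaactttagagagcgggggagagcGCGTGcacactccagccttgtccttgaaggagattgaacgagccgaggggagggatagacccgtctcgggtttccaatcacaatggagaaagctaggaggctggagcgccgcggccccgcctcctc
All 6 windows held the core, with 2 copies each for Slc16a3 and Slc2a1, and none held CACGTG, an E-box that contains ACGTG. Over all promoter windows of this length, 12679 of 32851 (38.6%) held the core and 1978 (6.02%) held CACGTG. Many genes have several windows. A window with the core was found for 9 of 10 genes lower in bone marrow (13 of 16 windows), 5 of 5 genes higher there (7 of 7 windows) and 15 of 19 genes not called (17 of 26 windows). The core was thus present in genes of either direction, and a match of letters is not a binding site.

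Among the 4 transporters, 2 were called (50%, against 36.1% of all genes tested), both lower in bone marrow. Slc16a3 encodes MCT4, a lactate exporter of strongly glycolytic cells, and its signal was 246, 549 and 482 in bone marrow, against 1178, 2363 and 2321 in fetal liver. Its highest bone marrow array lay below its lowest fetal liver array, and replicate 1 was the lowest of its group in both tissues. For the summed megakaryocyte markers, fetal liver replicate 1 was also the lowest of its group, at 33780.4. Fetal liver replicates 2 and 3 had 48815 and 48947.5. Bone marrow replicate 1 was instead the highest of its group for that sum, at 40778, against 38604 and 35576.5 in replicates 2 and 3. The part of these markers in the result was not tested. The log2 fold change of Slc16a3 was -2.21 ± 0.34 (SE, adjusted p = 0.000974), which is 4.63-fold lower in bone marrow. Slc2a1, encoding the widely expressed glucose transporter GLUT1, averaged 2636 ± 307 in bone marrow, against 4767 ± 371 in fetal liver (SD, n = 3 each), with a log2 fold change of -0.86 ± 0.10 (adjusted p = 0.000245). The other two transporters had values near equality. Slc2a3, encoding the high-affinity glucose transporter GLUT3, had 4425, 4699.8 and 4644 in bone marrow, against 3873, 4791 and 4904 in fetal liver. Its arrays overlapped between tissues, with a log2 fold change of 0.03 ± 0.10 (adjusted p = 0.843). Slc16a1, encoding the monocarboxylate transporter MCT1, had 0.02 ± 0.10 (adjusted p = 0.882).

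At the first committed steps, 1 hexokinase was higher in bone marrow and 1 phosphofructokinase subunit was lower. Of these 6 tested genes, 33.3% were called, against 36.1% of all genes. Hk1, the general hexokinase, had 2198, 2939 and 2653 in bone marrow, against 2553, 2233 and 2440.1 in fetal liver. These arrays overlapped, and the log2 fold change was 0.10 ± 0.12 (adjusted p = 0.537). For Hk2, the isoform best known as inducible by HIF and insulin, the log2 fold change was 0.13 ± 0.09 (adjusted p = 0.284), with arrays that did not overlap. Hk3, which is known in the mouse from myeloid cells, had 254, 428 and 406 in bone marrow, against 57.3, 31.4 and 48.2 in fetal liver. Every bone marrow array was above every fetal liver array, and bone marrow replicate 1 was the lowest of its 3. The log2 fold change was 3.0 ± 0.30 (adjusted p = 7.77e-05), or 7.98-fold higher.

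Phosphofructokinase is a tetramer of liver, muscle and platelet type subunits. Pfkl, the liver type, averaged 1450.2 ± 284 in bone marrow, against 2364 ± 436 in fetal liver (SD, n = 3 each), with a log2 fold change of -0.71 ± 0.17 (adjusted p = 0.00972). Pfkm, the muscle type, had 0.17 ± 0.12 (adjusted p = 0.314). Pfkp, the platelet type, had 0.04 ± 0.15 (adjusted p = 0.859).

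Against 36.1% of all genes tested, all 3 tested PFKFB genes were called. Their products make and break the sugar bisphosphate that activates phosphofructokinase. Pfkfb4 had 126, 297 and 237 in bone marrow, against 45.8, 42.0 and 49.7 in fetal liver. The fetal arrays were close together, and bone marrow replicate 1 was again the lowest of its group. Its log2 fold change was 2.18 ± 0.32 (adjusted p = 0.000773), or 4.53-fold higher. Pfkfb2, a form known from heart, had 693, 707 and 595 in bone marrow, against 924, 769.6 and 1232 in fetal liver, and its lowest fetal array was close to the highest bone marrow array. Its log2 fold change was -0.53 ± 0.17 (adjusted p = 0.0398). The inducible form Pfkfb3, with a strong kinase activity, was higher by 0.44 ± 0.13 (adjusted p = 0.0282). These 2 calls were the least stable of the set. Pfkfb2 lost its call without any 1 of the arrays other than fetal liver replicate 2, with an adjusted p of 0.0527 to 0.134. Pfkfb3 lost its call without bone marrow replicate 2 or 3 or fetal liver replicate 2 or 3, with an adjusted p of 0.0635 to 0.126. After median centring the log2 fold change of Pfkfb3 was 0.11 (adjusted p = 0.548). With the replicate number as a block, the adjusted p was 0.0657 for Pfkfb2 and 0.0543 for Pfkfb3.

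From aldolase to pyruvate kinase, 5 of 7 tested genes were lower in bone marrow (71.4%, against 17.8% of all genes tested). Of the other genes of this step, 1 was higher and 1 was not called. The median log2 fold change of the step was -0.35. Aldoa, the main aldolase outside liver and brain, had 6277, 6838 and 6508 in bone marrow, against 8198, 9339.8 and 7899.5 in fetal liver. The 2 ranges were well apart for a change of 1.29-fold, with a log2 fold change of -0.37 ± 0.08 (adjusted p = 0.00598). Tpi1, triosephosphate isomerase, was lower by more, at -0.60 ± 0.08 (adjusted p = 0.000303). Pgam1, phosphoglycerate mutase, stood at -0.55 ± 0.09 (adjusted p = 0.00112). Pkm, pyruvate kinase of muscle and most dividing cells, stood at -0.35 ± 0.08 (adjusted p = 0.00627). Pgk1, phosphoglycerate kinase, changed least of the 5, at -0.26 ± 0.07 (adjusted p = 0.0192), and its adjusted p was 0.0719 without bone marrow replicate 1 and 0.0739 without bone marrow replicate 3. Aldoc, the aldolase best known from brain, went the other way at 0.67 ± 0.19 (adjusted p = 0.0245), with 179 ± 26.8 in bone marrow, against 112 ± 3.08 in fetal liver (SD, n = 3 each). Its adjusted p was 0.0966 without bone marrow replicate 2 and 0.0638 without fetal liver replicate 3, and after median centring its log2 fold change was 0.33 (adjusted p = 0.236). Eno2, the neuronal enolase, was dim and scattered from 35.7 to 77.3 in bone marrow and from 24.8 to 101 in fetal liver, with a log2 fold change of 0.34 ± 0.52 (adjusted p = 0.644).

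Gapdh, the dehydrogenase between aldolase and phosphoglycerate kinase, is given from the array's control probe sets, which were not part of the test. The probe set at the 3′ end of its transcript had 7091, 7957 and 7306 in bone marrow, against 7960.2, 10159.6 and 8015 in fetal liver. The probe set at the 5′ end had 5096, 5036 and 5275 in bone marrow, against 6052, 7372 and 6084 in fetal liver. In both, and in the one for the middle of the transcript, every bone marrow array was below every fetal liver array, by a mean log2 difference of -0.22 at the 3′ end, -0.28 in the middle and -0.33 at the 5′ end.

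The 2 lactate dehydrogenase subunits moved in opposite directions. Ldha, whose subunit favours lactate formation, had 5344, 6066 and 4861 in bone marrow, against 6429, 7303 and 7199 in fetal liver. The highest bone marrow array and the lowest fetal array were close. The log2 fold change was -0.37 ± 0.09 (adjusted p = 0.0145), and the adjusted p was 0.0675 without bone marrow replicate 3 and 0.0524 without fetal liver replicate 3. Ldhb, whose subunit is known from oxidative tissues such as heart, had 321, 449 and 363 in bone marrow, against 124, 214 and 231 in fetal liver. All bone marrow arrays were above all fetal arrays, with a log2 fold change of 1.03 ± 0.25 (adjusted p = 0.0121), or 2.04-fold higher. The adjusted p of Ldhb was 0.0507 without bone marrow replicate 2, and after median centring the log2 fold change was 0.69 (adjusted p = 0.0577).

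None of the 7 tested genes of the pyruvate dehydrogenase complex and its kinases was called by limma, against 36.1% of all genes tested. Of the 7, 2 had an unadjusted p under 0.05, both lower in bone marrow. Their log2 fold changes were -0.28 ± 0.10 for the kinase Pdk1 (adjusted p = 0.0625), a known HIF target, and -0.27 ± 0.10 for Dld (adjusted p = 0.0732), the lipoamide dehydrogenase subunit. Pdhb, a subunit of the pyruvate-decarboxylating component, had 3008, 3031 and 2849 in bone marrow, against 3139, 3464 and 3397 in fetal liver. Its bone marrow arrays were all below its fetal arrays, but the difference of -0.17 ± 0.08 missed the threshold (adjusted p = 0.123). Dlat, the acetyltransferase core, also had separate arrays, at -0.23 ± 0.11 (adjusted p = 0.115). Pdk3 stood at -0.24 ± 0.12 (adjusted p = 0.135), Pdha1 at -0.10 ± 0.08 (adjusted p = 0.349) and Pdk2 at 0.16 ± 0.15 (adjusted p = 0.44). Without fetal liver replicate 1, Pdk1 was called at -0.38 (adjusted p = 0.0102) and Pdk3 at -0.35 (adjusted p = 0.0241). When the probe sets of each gene were averaged, limma called Pdk1 lower at -0.34 (adjusted p = 0.0247) and Pdha1 lower at -0.32 (adjusted p = 0.0275). With each array centred on its median, all 6 genes of this group other than Pdk2 were called lower in bone marrow, under a shift that made 46.2% of all genes lower. The same 6 were called with centring on the filtered probe sets, where 31.3% of all genes were lower.

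Of the 6 tested pentose phosphate genes, 0 were called by limma and 0 had an unadjusted p under 0.05. The arrays of the tissues overlapped for all 6. Over all genes tested, 36.1% were called, and the arrays did not overlap for 50.5%. Tkt, transketolase, which links the pathway back to glycolysis, had 6225, 7357 and 6496 in bone marrow, against 6656, 8259 and 6686 in fetal liver. Its log2 fold change was -0.10 ± 0.10 (adjusted p = 0.469). The NADPH-forming dehydrogenase Pgd had the most negative value of the pathway, -0.21 ± 0.11 (adjusted p = 0.168), and was called without fetal liver replicate 1 at -0.30 (adjusted p = 0.0484). The lactonase Pgls had -0.12 ± 0.09, the ribose phosphate isomerase Rpia -0.08 ± 0.09, transaldolase Taldo1 0.01 ± 0.11 and the epimerase Rpe 0.13 ± 0.14. Pgd, Pgls, Tkt and Rpia were called lower with median centring, of which Pgd and Pgls were called with centring on the filtered probe sets as well.

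Ratios of paralogues within an array do not move with its scaling, and 14 pairs were compared between tissues. For 10 pairs the 3 bone marrow ratios and the 3 fetal liver ratios did not overlap. The signals of single genes did not overlap for 50.5% of all genes tested, but no such share was taken over ratios of other genes. Some pairs share a gene, so they are not independent of each other or of the single genes above. With 3 against 3 arrays the two-sided exact permutation test cannot go below 0.1, and each of these 10 pairs reached 0.1, or 0.14 adjusted by Benjamini-Hochberg over the pairs. So none could pass the threshold, and the sizes are given as measured. The largest differences in log2 ratio were 2.90 for Hk3 over Hk1, 2.86 for Hk3 over Hk2 and -2.23 for Slc16a3 over Slc16a1. Pfkfb4 over Pfkfb3 differed by 1.74, Ldhb over Ldha by 1.40 and Aldoc over Aldoa by 1.04. Slc2a3 over Slc2a1 differed by 0.89, Pfkl over Pfkm by -0.88, Pfkp over Pfkl by 0.74 and Pdk1 over Pdk2 by -0.44. When the probe sets of each gene were averaged, Pfkp over Pfkl differed by 0.84 with exact p = 0.2, so its ratios then overlapped. Each family compared had at least 1 pair whose ratios separated the tissues. Ratios overlapped for Hk1 over Hk2 (-0.03, exact p = 0.9, but -0.22 with exact p = 0.1 when the probe sets of each gene were averaged), Pdk1 over Pdk3 (-0.04, exact p = 0.6), Pfkp over Pfkm (-0.13, exact p = 0.3) and Pdk3 over Pdk2 (-0.41, exact p = 0.2).

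**Figure D3:**
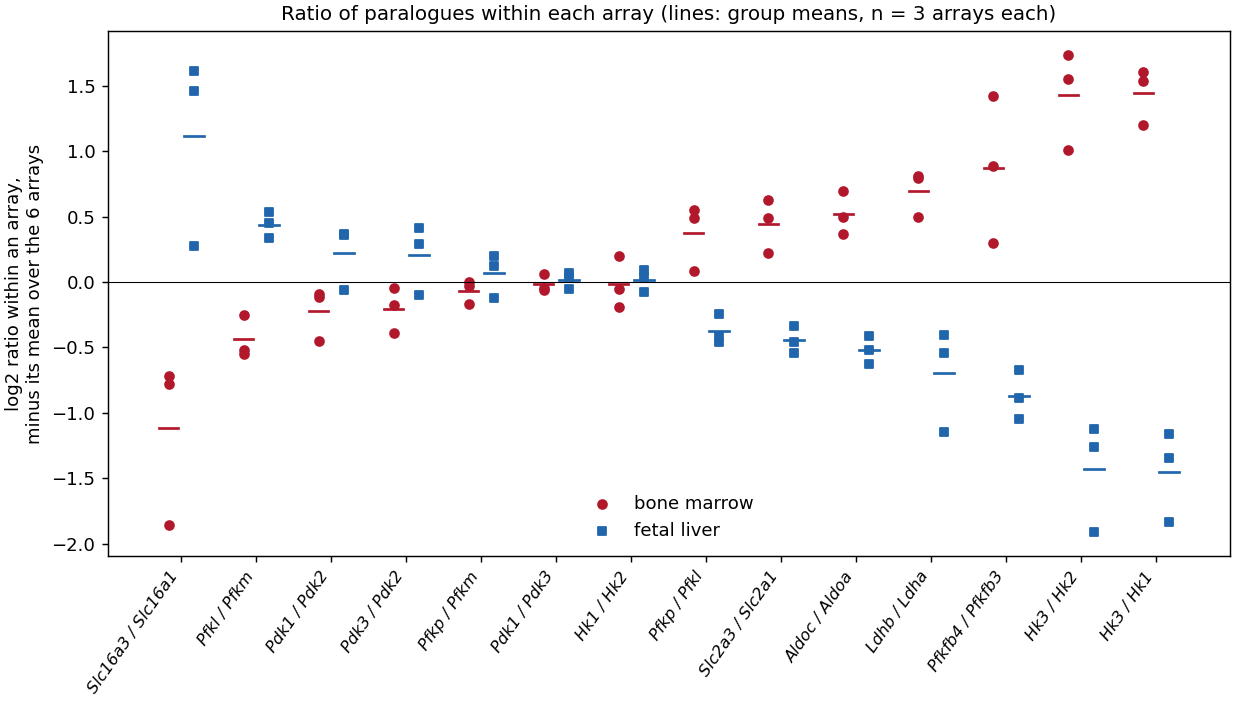
Log2 ratio of 2 paralogues within each array, minus the mean of that ratio over the 6 arrays, for 14 pairs. Red circles are bone marrow arrays, blue squares are fetal liver arrays, and lines are group means (n = 3 each). The groups do not overlap in 10 pairs, and the widest gaps are those of Hk3 over Hk1 and Hk3 over Hk2.

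Several probe sets per gene gave a second reading from the same arrays. Fitted one by one with limma, 75 probe sets of these genes passed the filter, 24 were lower in bone marrow and 10 were higher. This fit adjusted over the 27022 probe sets that passed the filter, and its share called over all of them is not given here. The counts are description only, since probe sets of 1 gene are not independent readings. For 19 genes with several tested probe sets, 0 had probe sets called in both directions. Hk3 had a second probe set with 245, 380 and 322 in bone marrow, against 12.8, 23.5 and 31.3 in fetal liver, a log2 fold change of 3.88 ± 0.35 (adjusted p = 3.76e-05). All 4 probe sets of Ldhb were higher, with the lowest at 0.97. All 3 of Slc2a1 were lower, down to -1.13, and all 3 of Tpi1 lay between -0.60 and -0.55. Among the uncalled genes, Rpe, Pdha1 and Pdk1 each had 1 called probe set. A dim probe set of Rpe had 157, 127 and 125 in bone marrow, against 51.5, 37.6 and 38.5 in fetal liver. Those arrays did not overlap, and the log2 fold change was 1.69 ± 0.25 (adjusted p = 0.000883), while its 2 brighter probe sets were not called. The mean over its probe sets gave a called increase of 0.52 (adjusted p = 0.0158). A dimmer probe set of Pdha1 was lower at -0.54 (adjusted p = 0.0185), and one of Pdk1 at -0.68 (adjusted p = 0.0207), where the brightest probe set of each was not called. The brightest probe sets of Aldoa, Ldhb, Pgd, Dlat, Tkt and Slc2a3 are of designs whose probes may match other transcripts.

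**Figure D4:**
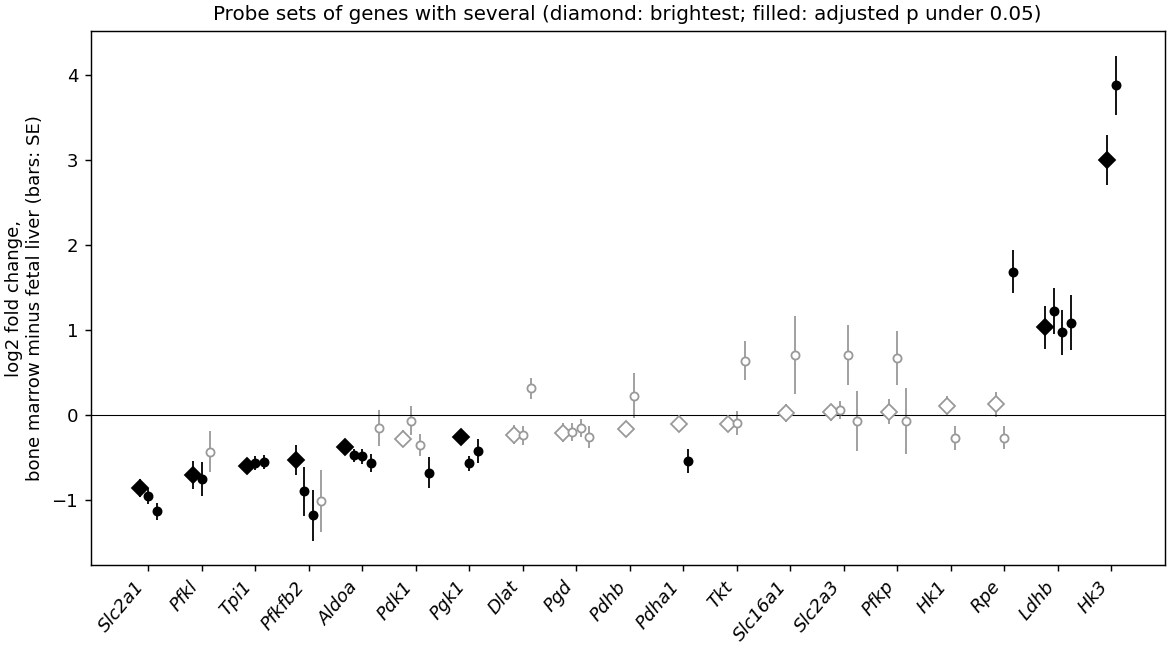
Log2 fold change, bone marrow minus fetal liver, of every tested probe set of the 19 genes with several, with SE bars from the limma fit over all probe sets. Diamonds are the brightest probe set of a gene, and filled symbols have an adjusted p under 0.05. The called probe sets of each gene lie on the same side of 0, and Rpe has 1 called probe set at 1.69 beside 2 open ones.

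A further 48 genes of the same pathways, such as other sugar transporters, side enzymes and pyruvate carriers, had 32 tested. Of these, 11 were higher in bone marrow (34.4%, against 18.3% of all genes), 5 were lower (15.6%, against 17.8%) and 16 were not called. Their median log2 fold change was 0.17. With median centring 6 were higher and 9 lower, and 2 or 3 were lower without bone marrow replicate 1 or 3 or fetal liver replicate 2 or 3. Tigar, a phosphatase that removes the activator of phosphofructokinase, had 148, 219.7 and 190.5 in bone marrow, against 678, 631 and 776 in fetal liver. Its tissues were far apart, with a log2 fold change of -1.91 ± 0.18 (adjusted p = 5.49e-05). Pdp1, the phosphatase that reactivates pyruvate dehydrogenase, had 389.8, 415 and 401 in bone marrow, against 206, 143 and 166 in fetal liver, a log2 fold change of 1.24 ± 0.17 (adjusted p = 0.000623). The sugar transporters Slc2a10 and Slc2a6 were higher as well, at 1.76 ± 0.39 (adjusted p = 0.00771) and 1.44 ± 0.35 (adjusted p = 0.0115). Slc2a10 was dim, and 1 of its 3 fetal liver arrays was below the control level. Among the others called, Bpgm, which makes the haemoglobin regulator of red cells, was higher at 0.69, and Pdhx, a structural subunit of the pyruvate dehydrogenase complex, was lower at -0.55.

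Markers of other blood cells were set beside the genes that were higher in bone marrow. All 5 tested macrophage markers and all 5 tested mast cell and basophil markers were higher there, against 18.3% of all genes tested. Of 7 tested lymphoid markers, 5 were higher (71.4%) and 2 were not called. Of 20 granulocyte and monocyte markers, 16 were tested. Against 18.3% of all genes tested, all 16 of these markers were higher in bone marrow. Their summed signal was 58520.1 to 75365 in bone marrow and 7412 to 9348 in fetal liver, with Mmp8 below the control level on all fetal liver arrays. S100a9 averaged 12555 ± 1579 in bone marrow, against 448 ± 285 in fetal liver. Lyz2 averaged 6957 ± 743 in bone marrow, against 2559 ± 518 in fetal liver, and Mpo averaged 5605 ± 435 in bone marrow, against 3144 ± 390 in fetal liver (SD, n = 3 each). Bone marrow replicate 1 had the lowest of the 3 bone marrow sums. It also had the lowest signals of the 3 for Hk3, Pfkfb4 and Ldhb. By single marker the list was split. Mpo, Elane, Prtn3, Ctsg and Irf8 were highest on bone marrow replicate 1, Csf1r was in the middle, and the other tested markers were lowest there. The same array was the lowest of the 3 for the erythroid sum (11755, against 20722 and 22053 in bone marrow replicates 2 and 3), the lymphoid sum and the mast cell and basophil sum given below, but not for the macrophage sum. The part of these cells in the results for Hk3, Pfkfb4, Ldhb and the other genes higher in bone marrow was not tested. Here and below, the markers that lead a list are those with the highest mean log2 signal over the 6 arrays. Mast cell and basophil markers, led by Cpa3, Hdc and Mcpt8, summed to 4026 to 5224 in bone marrow and 256 to 354 in fetal liver. In bone marrow the brightest of them was Fcer1a, at 2329 ± 240 (SD, n = 3), against 886 ± 476 for Hdc. In fetal liver Fcer1a, Mcpt8 and Gzmb were below the control level on all arrays. Macrophage markers, led by Cd68, C1qb and Mrc1, summed to 1585 to 1993 in bone marrow and 308 to 332 in fetal liver, where C1qc, Vcam1 and Cd5l were below the control level on all arrays. Lymphoid markers, led by Cd79b, Vpreb1 and Il7r, summed to 3372 to 5035 in bone marrow and 1437 to 1575 in fetal liver. In bone marrow Ebf1 (791 ± 264), Dntt (630 ± 138) and Cd79a (375 ± 121) were brighter than Vpreb1 (347 ± 113, SD, n = 3 each). Pax5 was below the control level on all 6 arrays, and Cd79a, Rag1, Cd3e and Blnk were below it on all fetal liver arrays. Erythroid markers, led by Tfrc, Hemgn and Ermap, summed to 11755 to 22053 in bone marrow and 9972 to 12049 in fetal liver. In bone marrow Slc4a1 (4229 ± 1739) was brighter than Hemgn (2655 ± 364, SD, n = 3 each). Of 12 tested erythroid markers, 5 were higher in bone marrow (41.7%, against 18.3% of all genes tested) and 1, Epor, was lower. The other 6 were not called, among them Tfrc, Hemgn and Ermap. Hba-a1 was below the control level on all 6 arrays. Hepatoblast markers, led by Afp, Apoa1 and Apoa2, were low in both tissues. They summed to 303 to 397 in bone marrow and 189.8 to 260.5 in fetal liver. Alb, Ttr and Fgb averaged below the control level in bone marrow, and Fgb and Hnf4a did so in fetal liver. None was below that level on all arrays of a tissue.

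Genes lower in bone marrow were set beside dividing-cell markers, since the 2 moved the same way. Of 14 tested mitosis genes, 13 were lower in bone marrow (92.9%, against 17.8% of all genes tested) and 1 was not called. Their median log2 fold change was -0.64. The 4 largest changes were those of Plk1 at -1.09, Aurka at -1.06, Cdc20 at -0.75 and Cenpe at -0.68. Endothelial markers, led by Tie1, Tek and Esam, summed to 3905 to 4598 in bone marrow and 5012 to 6907 in fetal liver. Of 6 tested, 3 were lower (50%, against 17.8% of all genes). Their part in the results for the glycolytic genes was not tested. Of the sort genes, Kit was higher in bone marrow at 0.62 ± 0.16 (adjusted p = 0.0141), or 0.28 with median centring (adjusted p = 0.128), while Itga2b, which encodes CD41, had -0.01 ± 0.17 (adjusted p = 0.963). Slamf1, which encodes CD150, had 0.07 ± 0.34 (adjusted p = 0.886), and without fetal liver replicate 1 it was called at -0.42 (adjusted p = 0.0242). Gata1 was lower at -0.49 ± 0.12 (adjusted p = 0.0138), and its probe set does not check the GATA1s genotype, since where it lies relative to the missing part was not known.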

How the data were processed

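Each deposited column holds linear intensity values for 1 array. Per the submitters' processing notes the authors used MAS5, with no version stated there. Every array had a mean of 500 once 2% was trimmed from each end, as measured in the deposited values. Of 45101 probe sets, 34945 had 1 gene symbol in the platform annotation, and 0 value columns were left unmapped to a sample. Array number limits the precision; correlations of log2 signals across probe sets ran from 0.920 to 0.932 for arrays of different tissues and from 0.954 to 0.962 for arrays of the same tissue.

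Log2 values were taken without an offset. Probe sets with a mean above the 40th percentile (signal 22.9; 27022 probe sets) were kept, and the brightest of each gene was used. limma 3.58.1 (R 4.3.3) fitted tissue with an intensity-trended prior and 4 residual degrees of freedom, with Benjamini-Hochberg adjustment over 11645 genes and a threshold of 0.05. The control level, a signal of 10.6, is that below which 95% of the values of 27 unspiked bacterial control probe sets lay. In simulated data of 11645 genes, the share recovered was 71% for the 100 changed 2-fold and 92% for the 100 changed 4-fold, with 4 unchanged genes called.

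The members, lists and tests were chosen with earlier results of these data known. Values on each array are given for called members with a log2 fold change of at least 1 in size and for the brightest member of each step; of each other list, the 4 called genes with the largest change are named, and of marker lists the 3 brightest. Pdhx, Bpgm, Pfkl, Slc2a1 and the called megakaryocyte markers are named or shown beyond this rule. So are Fcer1a, Ebf1, Dntt, Cd79a and Slc4a1 with their bone marrow signals. Elane, Prtn3, Ctsg, Irf8, Csf1r, Epor and the markers below the control level are named beyond it as well. All were chosen after their values were seen. Promoters were matched by symbol to RefSeq windows for 39 of 40 genes, and bases after the start were left out. Samples of the same replicate number did not deviate together (correlations of -0.08, 0.07 and -0.11), so no pairing by number was seen. Deviations from a mean of only 3 arrays cannot exclude one. Python 3.11.15, pandas 2.3.3, numpy 2.4.6, scipy 1.17.1 and matplotlib 3.10.9 made the tables and figures.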

Additional observations from a re-analysis of the deposited data

How the results depend on the processing

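Across 17 alternatives of the fit, 9 of the 15 called genes were called wherever they were tested: Slc16a3, Slc2a1, Pfkl, Tpi1, Pgam1, Aldoa, Pkm, Hk3 and Pfkfb4. The other 6 lost the call in at least 1 alternative, and 11 uncalled genes gained one in at least 1. Median centring left 2 genes of the set higher and 20 lower, with a set median of -0.44, and over all genes 1348 higher and 5377 lower. Centring on filtered probe sets, chosen after seeing the data, left 3 higher and 18 lower, with a set median of -0.26 and 3649 genes lower in all. Those 2 alternatives shift every gene by the same amount. With the filter at the 60th percentile, which tests fewer genes, 2 of the set and 1402 genes in all were higher. Leaving out 1 array at a time gave 2 to 5 of the set higher and 1268 to 2193 genes lower in all. The replicate block, for numbers that showed no pairing of the samples, gave 4 of the set higher and 9 lower. In all, it gave 1991 genes higher and 1856 lower. Signs of uncalled values changed as follows, and the cause was not tested beyond the shift by centring. With median centring and with centring on filtered probe sets, in that order, log2 fold changes were -0.31 and -0.13 for Slc2a3, -0.31 and -0.14 for Slc16a1, -0.24 and -0.059 for Hk1, -0.20 and -0.026 for Hk2, -0.30 and -0.12 for Pfkp, -0.32 and -0.15 for Taldo1, -0.21 and -0.032 for Rpe, and -0.26 and -0.086 for Slamf1. Median centring gave -0.17 for Pfkm and -0.17 for Pdk2. Quantile normalization gave -0.044 for Pdk2, 0.017 for Rpia and 0.085 for Itga2b. Averaging the probe sets of each gene gave -0.085 for Hk1, 0.028 for Pdhb, 0.15 for Tkt and 0.041 for the ratio of Pfkp over Pfkm. Single probe sets gave -0.070 for Slc2a3, -0.27 for Hk1, -0.069 for Pfkp, 0.23 for Pdhb, 0.31 for Dlat, 0.64 for Tkt and -0.27 for Rpe. Leaving out 1 array at a time gave -0.079 to 0.091 for Slc2a3, -0.053 to 0.11 for Slc16a1, -0.13 to 0.16 for Pfkp, -0.10 to 0.91 for Eno2, -0.089 to 0.074 for Taldo1, -0.17 to 0.0010 for Tkt, -0.043 to 0.23 for Rpe, -0.42 to 0.37 for Slamf1, -0.22 to 0.12 for Itga2b and -0.14 to 0.055 for the ratio of Hk1 over Hk2. With 3 arrays a tissue, small differences could miss the threshold.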

Other observations

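Genes next to the pathway gave further values from the same fit. Of 23 tested genes of the tricarboxylic acid cycle, which oxidises the acetyl-CoA made from pyruvate, 4 were lower in bone marrow by limma and 0 were higher, and 0 were higher at an unadjusted p under 0.05 too. The 4 are 17.4% of the list, against 17.8% of all genes called lower, a share near the background. The 4 were Suclg1, a subunit of succinate-CoA ligase, at -0.40 (adjusted p = 0.0098), citrate synthase Cs at -0.34 (adjusted p = 0.0344), the isocitrate dehydrogenase subunit Idh3b at -0.33 (adjusted p = 0.0261) and fumarase Fh1 at -0.28 (adjusted p = 0.0275). The list's median was -0.06, close to the median of all genes, and with median centring 17 of the 23 were lower, against 46.2% of all genes. Cs, Idh3b and Fh1 each lost the call without any 1 of the bone marrow arrays, and Cs and Fh1 also without fetal liver replicate 3, with an adjusted p of 0.0581 to 0.106.

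Of 15 tested genes known to respond to hypoxia outside metabolism, 5 were higher in bone marrow (33.3%) and 4 were lower (26.7%). Over all genes tested, 18.3% were higher and 17.8% were lower. Bhlhe40, a transcriptional repressor, had 651, 429.8 and 590.3 in bone marrow, against 4.03, 5.12 and 8.07 in fetal liver, where all 3 arrays were below the control level, so it was at least 51.6-fold higher (adjusted p = 1.73e-06). Ndrg1, a stress-response gene, had 5427, 5504 and 4992 in bone marrow, against 1164, 1304 and 1633 in fetal liver, a log2 fold change of 1.97 ± 0.12 (adjusted p = 5.54e-06). Ddit4, an inhibitor of mTOR signalling, was higher by 2.27 ± 0.17 (adjusted p = 1.32e-05). Egln3, a prolyl hydroxylase that acts on HIF, had 226, 272 and 341 in bone marrow, against 738, 1274 and 1400 in fetal liver, a log2 fold change of -1.99 ± 0.25 (adjusted p = 0.000305). Genes of the same response thus lay far apart in both directions, and with median centring 7 of the 15 were lower, near the 46.2% of all genes that were lower with it.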
